A study of Homo sapiens with 30 samples.

Results

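The genes of the actin contractile machinery that are also used as smooth muscle markers were examined in G401 cells, a malignant rhabdoid tumor line that lacks SNF5, the protein encoded by SMARCB1. They were taken by name from the table of PRO-Seq counts, and all 10 were listed there among 20367 gene symbols: ACTA2, TAGLN, MYL9, CNN1, CNN2, TPM1, TPM2, CALD1, MYH9 and MYH10. In every group the cells carried a lentiviral TET-inducible construct, were selected with G418 and received 1 µg/ml doxycycline for 24 h, so the doxycycline is shared by the controls. The constructs encoded EGFP, the control protein; OMOMYC, a dominant-negative mutant of MYC; or SNF5. PRO-Seq, which maps active RNA polymerases by a nuclear run-on, and ATAC-Seq, which finds open chromatin, were done on 3 samples per construct, and MYC ChIP-Seq on 2. The study describes the PRO-Seq replicates as independent experiments. Whether the selected cells came from 1 clone is not given in the sources used here. The p-values of the main fits measure the spread between these samples that is left once the replicate number is accounted for.

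In smooth muscle and in other contractile cells, force comes from myosin II pulling on actin filaments. ACTA2 encodes smooth muscle alpha-actin, MYH9 and MYH10 the heavy chains of nonmuscle myosin IIA and IIB, and MYL9 a regulatory myosin light chain whose phosphorylation turns the motor on. Tropomyosins (TPM1, TPM2) lie along the filament, caldesmon (CALD1) and the calponins (CNN1, CNN2) bind actin and restrain the motor, and transgelin (TAGLN) cross-links actin. Serum response factor with its myocardin-family partners drives many of these genes through a sequence called the CArG box. ACTA2, TAGLN and CNN1 are the members most used as smooth muscle markers, whereas MYH9, MYH10, CNN2 and several tropomyosin forms are made by most cell types.

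The gene body totals were 28444943 to 46957634 reads per PRO-Seq sample, and the promoter-proximal totals were 518900 to 672874 in the replicate 1 samples and 2027512 to 3386528 in the others. SMARCB1 had 1 to 6 gene body reads in the EGFP samples, 2 to 5 in the OMOMYC samples and 2870 to 4467 in the SNF5 samples, as the labels say. The replicate 3 samples stood apart. Of 11171 genes tested, 78 were at least 8-fold lower in replicate 3 than in the mean of the other 2 replicates with all 3 constructs and 22 were at least 8-fold higher, against 12 and 0 for replicate 1 and 10 and 0 for replicate 2. TPM1 passed this 8-fold mark with EGFP and OMOMYC but not with SNF5. Calls are therefore given with and without replicate 3. Markers of mature smooth muscle were unequal: ACTG2, DES and MYOCD were under 1 CPM (reads per 1000000 gene body reads) in all 9 samples, MYH11 was at 0.718 to 2.34, LMOD1 at 3.65 to 25.5 and SMTN, which encodes smoothelin, at 42.5 to 70.2. Leukocyte genes PTPRC, CD3E and CD79A and the muscle regulators MYOD1 and MYOG were under 1 CPM in all 9 samples too. Others of the same lists were higher. CD68 of the leukocyte list was at 12.95 to 27.85 CPM. Of the striated muscle list, TNNT1 was at 27.12 to 38.84, TNNT2 at 7.34 to 27.41 and MYH3 at 7.17 to 13.55. The levels of these genes in the bulk samples cannot separate a change in every cell from a change in the share of cells that transcribe them.

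The promoters that the later results turn on are printed here from RefSeq (GRCh38), each from 250 bases before to 50 bases after an annotated start and read 5′ to 3′ on the strand of the gene. The RefSeq table matched 8 of the 10 genes with 13 starts; TAGLN and MYL9 were not among them. CALD1 and ACTA2 each have several starts, and the first 3 sequences are shown because an ATAC-Seq peak was found there in SNF5 samples and in 0 of 3 EGFP samples; their capitals mark the bases within the open site. The fourth, a start in the ACTA2 gene body, and the fifth, the CNN2 promoter, are shown for their motifs, in capitals.
CALD1, chr7:134779384-134779683, + strand: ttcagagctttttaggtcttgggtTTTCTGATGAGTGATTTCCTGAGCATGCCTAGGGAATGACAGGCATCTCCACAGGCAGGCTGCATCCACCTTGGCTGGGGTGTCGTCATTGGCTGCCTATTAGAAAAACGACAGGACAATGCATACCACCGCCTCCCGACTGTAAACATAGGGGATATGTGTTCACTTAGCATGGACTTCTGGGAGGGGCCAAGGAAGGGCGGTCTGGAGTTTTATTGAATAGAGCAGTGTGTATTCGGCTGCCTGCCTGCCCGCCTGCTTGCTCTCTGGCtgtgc
CALD1, chr7:134891208-134891507, + strand: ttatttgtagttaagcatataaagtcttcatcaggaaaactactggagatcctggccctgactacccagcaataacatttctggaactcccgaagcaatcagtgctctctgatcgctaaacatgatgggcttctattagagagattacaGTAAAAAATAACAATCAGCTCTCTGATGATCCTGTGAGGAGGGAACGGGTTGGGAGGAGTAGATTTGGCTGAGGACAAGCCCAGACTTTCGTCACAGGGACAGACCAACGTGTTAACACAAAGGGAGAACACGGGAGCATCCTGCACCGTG
ACTA2 upstream start, chr10:88991288-88991587, - strand: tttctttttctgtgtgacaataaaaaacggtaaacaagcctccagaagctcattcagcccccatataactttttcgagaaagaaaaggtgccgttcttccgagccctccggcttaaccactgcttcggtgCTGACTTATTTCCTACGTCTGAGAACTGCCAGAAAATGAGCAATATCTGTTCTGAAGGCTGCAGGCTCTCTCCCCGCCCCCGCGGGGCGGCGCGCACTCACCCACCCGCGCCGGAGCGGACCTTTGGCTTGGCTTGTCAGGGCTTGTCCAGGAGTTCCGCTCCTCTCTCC
ACTA2 downstream start, chr10:88952724-88953023, - strand: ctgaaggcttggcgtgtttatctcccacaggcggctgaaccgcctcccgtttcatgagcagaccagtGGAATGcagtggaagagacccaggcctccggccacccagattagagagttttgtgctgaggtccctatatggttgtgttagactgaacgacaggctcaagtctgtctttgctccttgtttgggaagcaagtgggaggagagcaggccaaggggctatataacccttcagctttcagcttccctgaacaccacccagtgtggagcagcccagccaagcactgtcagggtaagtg
CNN2, chr19:1026358-1026657, + strand: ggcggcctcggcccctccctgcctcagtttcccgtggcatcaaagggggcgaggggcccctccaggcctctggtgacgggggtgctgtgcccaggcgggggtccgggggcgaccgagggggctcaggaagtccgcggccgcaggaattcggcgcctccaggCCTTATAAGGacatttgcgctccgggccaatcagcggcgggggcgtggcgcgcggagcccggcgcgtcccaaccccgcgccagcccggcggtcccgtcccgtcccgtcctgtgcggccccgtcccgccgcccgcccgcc

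Both strands of each promoter were searched for 4 motifs: the CArG box, the MYC E-box CACGTG, the TEAD motif CATTCC and the AP-1 motif TGACTCA. The CArG box was found in 1.3% of 34943 promoters of the same length, and among the 8 members searched in CNN2 alone, where CCTTATAAGG begins 89 bases before the start. Only exact matches were counted, that is CC, 6 bases that are each A or T, and GG, and TAGLN and MYL9 were not searched. Near matches, such as ccctatatgg and ccttgtttgg in the downstream ACTA2 promoter, were therefore not counted. CACGTG was in 7.23% of all promoters and TGACTCA in 4.96%, and neither was in any of the 13 windows searched. CATTCC was in 14% of all promoters and in 1 window each of ACTA2, MYH9 and MYH10 and 2 of CALD1. In the downstream ACTA2 promoter, it reads GGAATG on the gene's strand and begins 183 bases before the start. A match describes these letters only, and it is not a bound site.

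The comparison of SNF5 with EGFP asks how the return of SNF5 changes transcription of these genes. With SNF5, 6 of the 10 genes rose in gene body counts and 0 fell: CALD1, CNN1, ACTA2, TAGLN, MYH9 and MYH10. All 10 passed the filter of a mean of 10 reads in both regions, CALD1 in the promoter-proximal region only through its SNF5 samples. In the fit with no filter, CALD1 was again among the genes that rose in gene bodies. Of all 11171 genes tested, 14.8% rose and 15.8% fell (edgeR's quasi-likelihood test with the replicate number as a block, Benjamini-Hochberg adjusted p under 0.05, here and throughout). The median log2 fold change was 0.53 over the 10 genes and -0.03 over all genes. Without replicate 3, TPM1 joined the 6 genes and 7 of 10 rose, when 23.8% of all genes rose and 32.6% fell. Without replicate 1 or without replicate 2, 2 genes, CALD1 and MYH9, passed the threshold, when 5.02% and 5.59% of all genes rose. Without the block for the replicate number, CALD1 was the 1 gene called (adjusted p = 0.0092), when 0.931% of all genes rose.

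**Figure D1:**
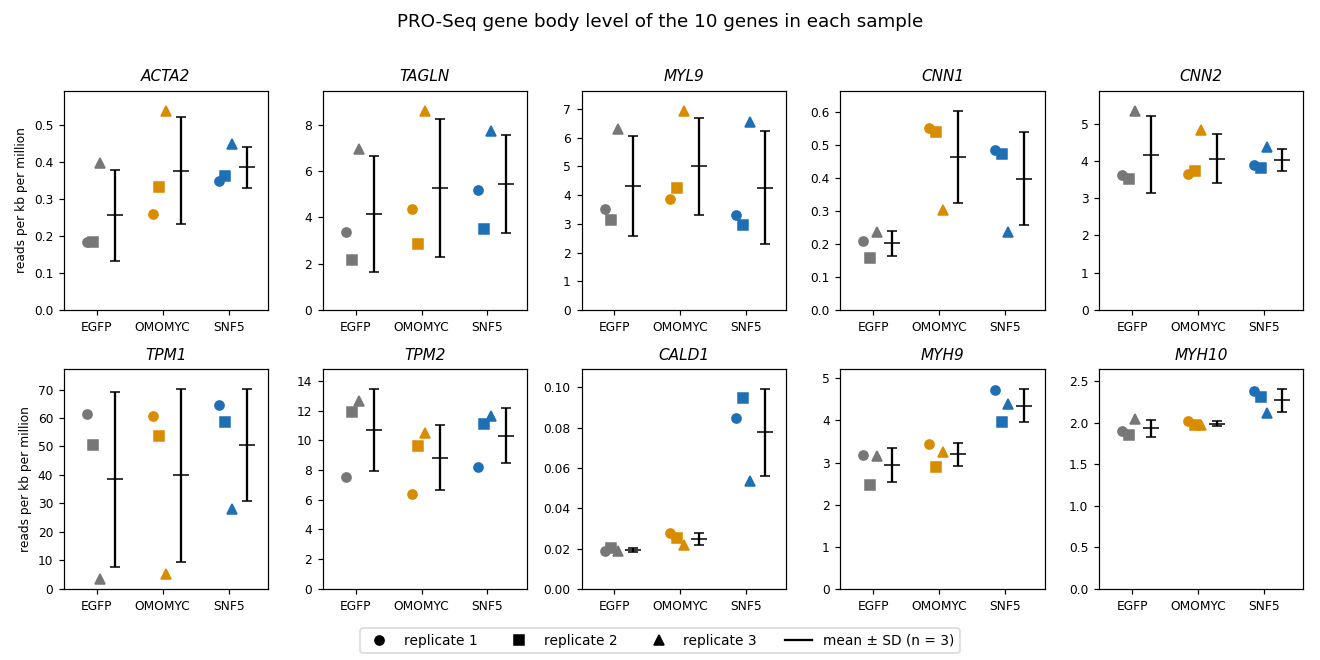
PRO-Seq gene body level of each gene in each sample, in gene body CPM per kb of gene body on linear axes that start at 0. Symbols give the replicate number, and the black bar beside them the mean ± SD of 3 samples. CALD1, MYH9 and MYH10 lie higher in all 3 SNF5 samples than in all 3 EGFP samples, and replicate 3 of TPM1 is low with EGFP (3.59) and OMOMYC (5.11).

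Levels are given per length, as gene body CPM per kb of gene body, scaled by the RLE method. In the EGFP samples TPM1 had the highest mean, 38.5 ± 30.8 (SD, n = 3), followed by TPM2 at 10.7 ± 2.77, and these 2 did not differ beyond their spread. TPM1 was highest in replicates 1 and 2, but in replicate 3 it was below TPM2, TAGLN, MYL9 and CNN2. MYL9 (4.31 ± 1.73), CNN2 (4.16 ± 1.03) and TAGLN (4.15 ± 2.49) followed, and these 3 did not differ beyond their spread. MYH9 was at 2.93 ± 0.408 and MYH10 at 1.93 ± 0.101. ACTA2 (0.256 ± 0.124) and CNN1 (0.202 ± 0.0391) were low and did not differ beyond their spread. CALD1 was lowest, at 0.0193 ± 0.00098, though its gene body is the longest of the 10 and still held 116 to 168 reads per EGFP sample. The gene body of ACTA2, TAGLN, TPM1 and CALD1 each contains 1 further annotated start group and that of MYH9 contains 2, so that reads begun at those starts are counted with the listed transcript. These genes have several transcript forms that the counts do not separate.

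CALD1 showed the largest change of the genes called. It encodes caldesmon, and the listed transcript NM_033157 lies at chr7:134464164-134655480 of hg19 on the + strand. Its gene body level was 0.0188, 0.0205 and 0.0188 in EGFP replicates 1, 2 and 3. It was 0.0276, 0.0253 and 0.0217 with OMOMYC. With SNF5 it was 0.0846, 0.0947 and 0.0536, above every other sample. The log2 fold change with SNF5 was 1.96 (SE 0.16, adjusted p = 0.00012), a 3.9-fold rise. By replicate number the rise was 4.51-fold, 4.62-fold and 2.86-fold, and the log2 fold change was 2.18 without replicate 3 (adjusted p = 5.6e-09).

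CNN1 encodes calponin 1, the form best known from differentiated smooth muscle. NM_001299 lies at chr19:11649579-11661138 of hg19 on the + strand. Its level was 0.21, 0.159 and 0.236 with EGFP and 0.485, 0.474 and 0.236 with SNF5. Replicates 1 and 2 were 2.31-fold and 2.98-fold higher with SNF5, and replicate 3 was at the level of its EGFP partner. The log2 fold change was 0.88 (SE 0.28, adjusted p = 0.045), and 1.36 without replicate 3 (adjusted p = 2.2e-05). The counts behind it are small, from 50 to 207 reads per sample over these 2 constructs.

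ACTA2, listed as NM_001141945, lies at chr10:90694831-90751147 of hg19 on the - strand. The level was 0.185, 0.183 and 0.399 with EGFP and 0.348, 0.362 and 0.449 with SNF5. Each SNF5 sample was above the EGFP sample of its number, but the groups overlap, since EGFP replicate 3 lies above SNF5 replicates 1 and 2. The log2 fold change was 0.67 (SE 0.16, adjusted p = 0.014), and 0.94 without replicate 3 (adjusted p = 4.4e-06). FAS, a death receptor gene on the other strand with starts inside the listed ACTA2 transcript, was named after its values were seen. Its gene body level was 0.0846, 0.0969 and 0.296 with EGFP and 0.342, 0.441 and 0.357 with SNF5. FAS was under the filter in the promoter-proximal window. In the fit with no filter its log2 fold change was 1.44 with SNF5 (SE 0.31, adjusted p = 0.0066). PRO-Seq reads carry strand, and the part of FAS in the ACTA2 counts was not tested.

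TAGLN encodes transgelin, also called SM22-alpha, and NM_001001522 lies at chr11:117070040-117075508 of hg19 on the + strand. Its level was 3.37, 2.14 and 6.93 with EGFP and 5.16, 3.51 and 7.71 with SNF5. All 3 SNF5 samples were above their EGFP partners, by 1.53-fold, 1.64-fold and 1.11-fold, and the groups overlap. The log2 fold change was 0.48 (SE 0.12, adjusted p = 0.015), and 0.65 without replicate 3 (adjusted p = 3.1e-05). Replicate 3 was the highest of each construct for TAGLN, ACTA2 and MYL9, and also for CNN2 and TPM2.

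The genes for the heavy chains of nonmuscle myosin IIA and IIB, MYH9 and MYH10, rose. MYH14, a further nonmuscle myosin gene tested, was not called with SNF5 (log2 fold change 0.069, SE 0.102, adjusted p = 0.64). MYH9 (NM_002473, chr22:36677323-36784063 of hg19, - strand) was at 3.17, 2.46 and 3.17 with EGFP and at 4.72, 3.95 and 4.39 with SNF5. The groups did not overlap, and the log2 fold change was 0.57 (SE 0.05, adjusted p = 0.00021), and 0.62 without replicate 3 (adjusted p = 3.4e-09). MYH10 (NM_001256095, chr17:8377523-8534079, - strand) was at 1.9, 1.85 and 2.05 with EGFP and at 2.38, 2.31 and 2.12 with SNF5. Its log2 fold change was 0.23 (SE 0.06, adjusted p = 0.021), with a 1.04-fold difference in replicate 3, and it was 0.31 without replicate 3 (adjusted p = 4.9e-07). The SNF5 samples all lay above all EGFP samples for 4 genes, CALD1, CNN1, MYH9 and MYH10, as for 9.33% of the genes tested, though the replicate 3 samples of CNN1 were both at 0.236. For MYL9, the regulatory light chain (NM_006097, chr20:35169887-35178226, + strand), the level was 3.5, 3.13 and 6.3 with EGFP and 3.3, 2.95 and 6.53 with SNF5. Its log2 fold change was -0.04 (SE 0.09, adjusted p = 0.78).

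TPM1, which encodes a tropomyosin made in many forms, was set apart by replicate 3. NM_001018007 lies at chr15:63334838-63364113 of hg19 on the + strand. With EGFP its gene body level was 61.5 and 50.5 in replicates 1 and 2 and 3.59 in replicate 3. With OMOMYC it was 60.7, 53.6 and 5.11, and with SNF5 64.5, 58.7 and 28. TPM1 was 15.6-fold lower in replicate 3 than in the mean of the other 2 with EGFP, 11.2-fold lower with OMOMYC and 2.2-fold lower with SNF5. As low a ratio, or lower, was seen for 0.555%, 0.806% and 3.86% of the genes tested.

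**Figure D2:**
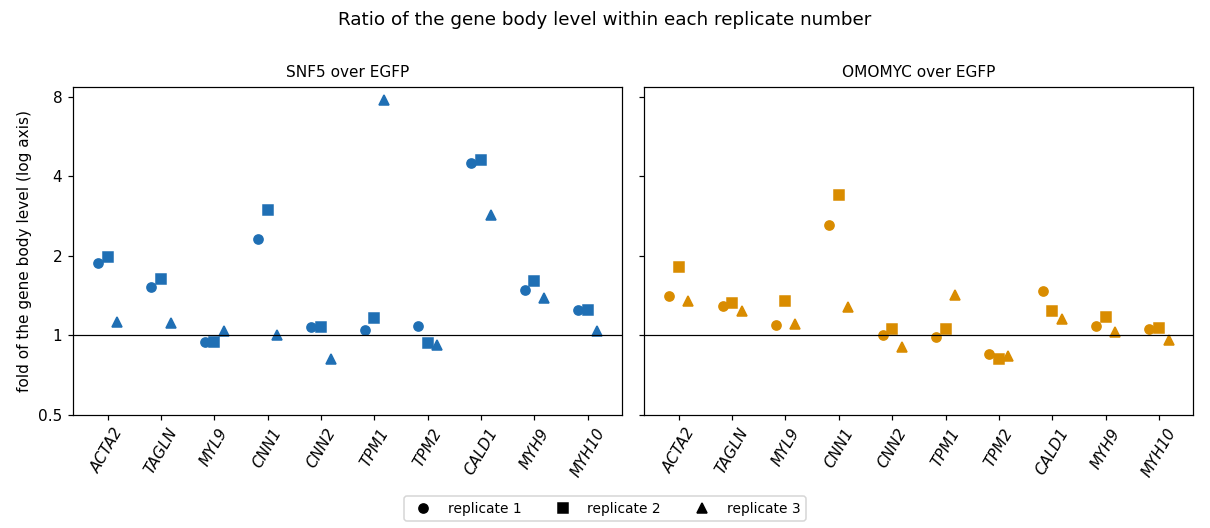
Gene body level of each gene with SNF5 or OMOMYC over that of the EGFP sample with the same replicate number, on a log axis where 1 is no difference. TPM1 with SNF5 is at 1.05 and 1.16 in replicates 1 and 2 and at 7.81 in replicate 3, whereas the 6 genes called higher with SNF5 have their lowest ratio in replicate 3.

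The SNF5 over EGFP ratio of TPM1 was 7.81 in replicate 3, against 1.05 and 1.16 in the others. The fit over all 3 replicates gave a log2 fold change of 1.17 with a wide error (SE 0.53, adjusted p = 0.12). Without replicate 3 it was 0.13 (SE 0.03, adjusted p = 0.002), which passed the threshold at a 1.1-fold difference. The promoter-proximal reads of TPM1 were low in the same samples: 21 and 31 in replicate 3 with EGFP and OMOMYC, against 164 to 343 in their other replicates. Per length, TPM1 ranked 10 of 11171 genes in EGFP replicate 1 and 45 in EGFP replicate 2, but 2381 in EGFP replicate 3.

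TPM2 encodes beta-tropomyosin (NM_213674, chr9:35681990-35690053, - strand). Its level was 7.51, 11.9 and 12.6 with EGFP and 8.17, 11.1 and 11.7 with SNF5 (log2 fold change -0.03, SE 0.06, adjusted p = 0.75). CNN2, the calponin form found in many tissues (NM_201277, chr19:1026298-1039064, + strand), was at 3.62, 3.52 and 5.35 with EGFP and 3.9, 3.8 and 4.37 with SNF5. Its log2 fold change was -0.03 (SE 0.08, adjusted p = 0.82). CNN2, TPM2 and MYL9 thus had log2 fold changes within 0.04 of 0 with SNF5.

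OMOMYC was compared with EGFP to ask what blocking MYC does to the same genes. With OMOMYC, 2 genes rose, CNN1 and ACTA2, and TPM2 fell, when 6.15% of all genes rose and 5.64% fell. The median log2 fold change of the 10 genes was 0.18. CNN1 was at 0.552, 0.539 and 0.302 with OMOMYC, above every EGFP sample, with a log2 fold change of 1.1 (SE 0.28, adjusted p = 0.041). ACTA2 was at 0.261, 0.332 and 0.54 (log2 fold change 0.58, SE 0.16, adjusted p = 0.048). TPM2 was at 6.37, 9.64 and 10.5, below its EGFP partner in each replicate, and fell by 0.27 on the log2 scale (SE 0.06, adjusted p = 0.034). All 3 OMOMYC samples lay above all EGFP samples for CNN1 and CALD1, as for 6.19% of the genes tested. For CALD1 the log2 fold change was 0.35 (SE 0.17, adjusted p = 0.18), and for TAGLN 0.35 (SE 0.12, adjusted p = 0.076).

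The 3 calls with OMOMYC depend on which replicates are used. Without replicate 1, without replicate 2 or without the block, 0 of the 10 genes passed. The number of all genes called with OMOMYC also fell sharply without the block. It moved widely when 1 replicate was left out, as the closing section gives. The 0 of 10 is therefore not particular to these genes. Without replicate 3, 7 rose (ACTA2, TAGLN, MYL9, CNN1, CALD1, MYH9 and MYH10) and TPM2 fell, when 23.5% of all genes rose and 27.2% fell. The CNN1 log2 fold change was then 1.54 and that of MYH10 0.08. The SNF5 and OMOMYC comparisons share the EGFP samples, so their values are set side by side only.

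**Figure D3:**
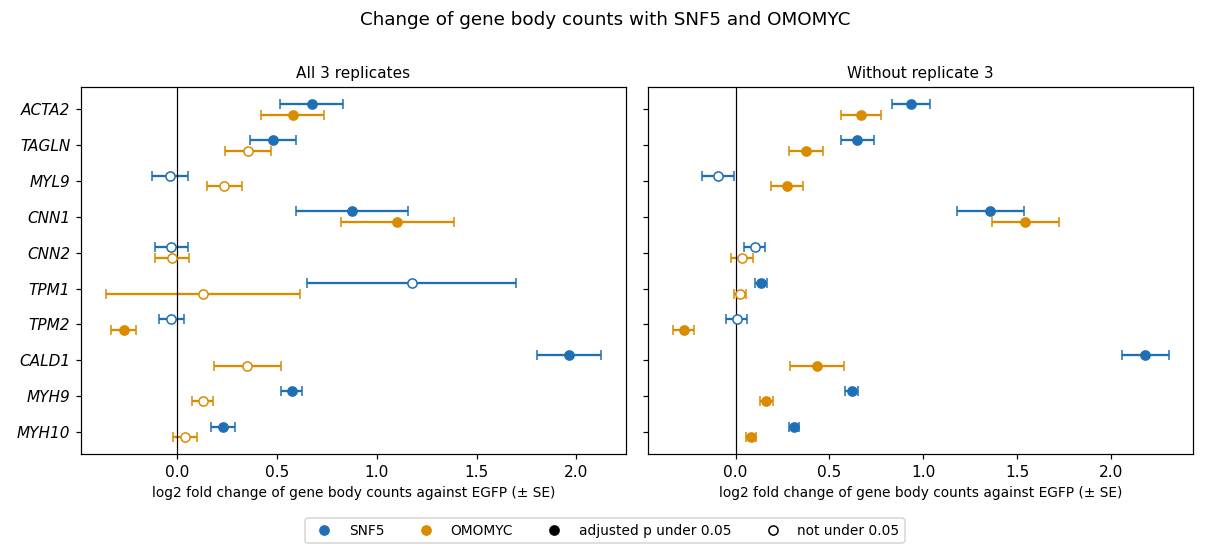
Log2 fold change of gene body counts with SNF5 and with OMOMYC against EGFP, ± SE, for all 3 replicates (left) and without replicate 3 (right). Filled points have an adjusted p under 0.05 in edgeR's quasi-likelihood test; TPM1 moves from 1.17 to 0.13 with SNF5 when replicate 3 is left out, and CALD1 stays near 2.

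The difference between the constructs was tested directly. CALD1, MYH9 and TPM2 were higher with SNF5 than with OMOMYC, and 0 of the 10 were lower, when 8.55% of all genes were higher and 7.1% lower. The log2 difference was 1.61 for CALD1 (SE 0.16, adjusted p = 0.00043), 0.45 for MYH9 (SE 0.05, adjusted p = 0.0011) and 0.24 for TPM2 (SE 0.06, adjusted p = 0.035). For ACTA2 it was 0.09 (SE 0.16, adjusted p = 0.72), for CNN1 -0.23 (SE 0.26, adjusted p = 0.59) and for TAGLN 0.13 (SE 0.11, adjusted p = 0.48), and none of these 3 passed the threshold. TPM2 lost its call without replicate 1, without replicate 2, with gene body totals only, and with only these 2 constructs in the fit. Without the block, CALD1 was the 1 gene of the 10 called, when far fewer of all genes were called too, as the closing section gives. Without replicate 3, 7 genes were higher with SNF5 (ACTA2, TAGLN, TPM1, TPM2, CALD1, MYH9 and MYH10), when 21.1% of all genes were. ACTA2 then had a log2 difference of 0.27 (adjusted p = 0.04) and TAGLN of 0.27 (adjusted p = 0.02). MYL9 was lower, as were 21.4% of all genes, with a log2 difference of -0.37 (SE 0.08, adjusted p = 0.0031).

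The promoter-proximal window, the 50 bases with most reads near the start, holds polymerase that has begun transcription but may be paused. CALD1 was the member called there with SNF5, when 3.02% of all genes rose. It had 0, 6 and 2 promoter-proximal reads in EGFP replicates 1, 2 and 3, 0, 5 and 4 with OMOMYC and 10, 41 and 24 with SNF5. Scaled for depth, each SNF5 sample was above all 6 others, and the log2 fold change was 3.12 (SE 0.48, adjusted p = 2.7e-05). The counts of the EGFP samples are near 0, so the size of this change is poorly fixed. CALD1 met the filter's mean of 10 reads in this window only through its SNF5 samples. Its call here is therefore a description and not independent support. With OMOMYC 0 of 10 genes were called, when 2.15% of all genes rose. In edgeR's test 2 genes had an unadjusted p under 0.05. The log2 fold change was 1 for ACTA2 (adjusted p = 0.1) and -0.75 for CNN2 (adjusted p = 0.11). DESeq2 also called 0 of them. Without replicate 3, ACTA2 and CALD1 rose with SNF5, when 4.51% of all genes rose. With OMOMYC ACTA2 then rose and CNN2 fell, when 9.15% of all genes rose and 0.242% fell.

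**Figure D4:**
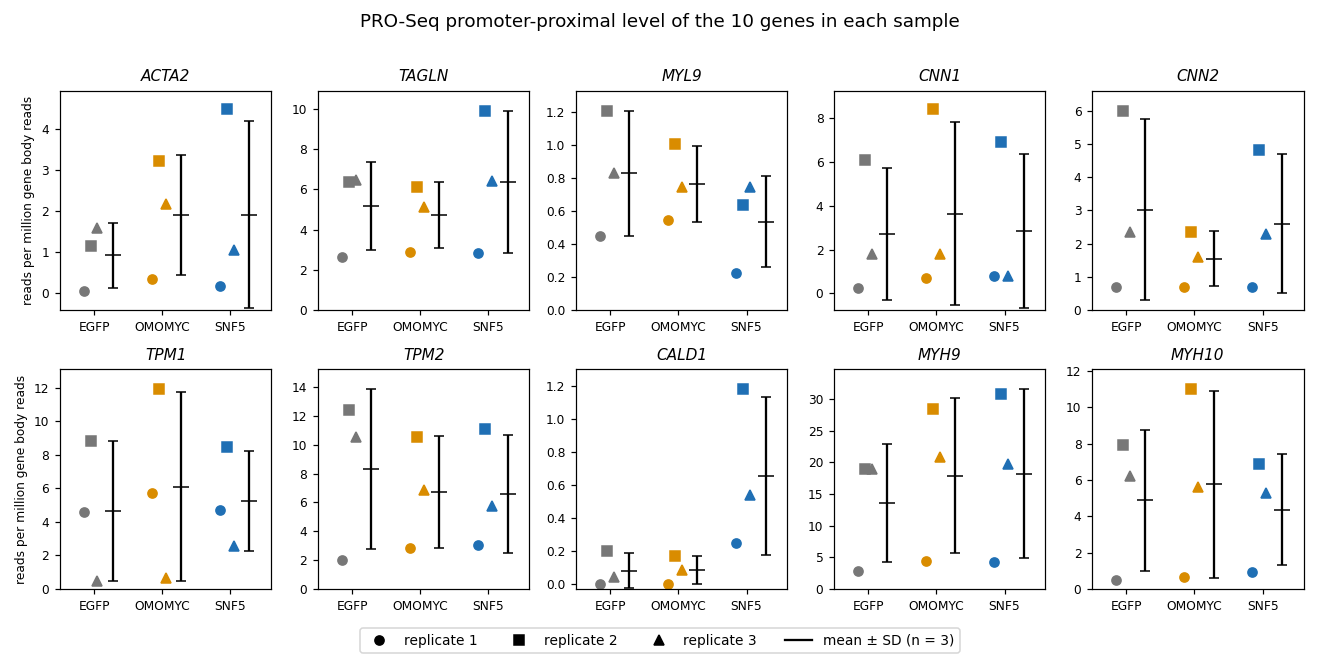
Promoter-proximal reads of each gene in each sample, scaled like gene body CPM to the total of gene body reads; black bars give the mean ± SD of 3 samples, which reaches below 0 for some genes. Replicate 1 samples are low for most genes, as their promoter-proximal totals are, and CALD1 is higher in the 3 SNF5 samples (0.248, 1.185 and 0.543) than in the other 6.

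The pausing index, the ratio of promoter-proximal to gene body density, did not pass the threshold for any of the 10 genes with either construct in edgeR's test. Of all genes, 3.66% were called with SNF5 and 2.26% with OMOMYC. With SNF5 the log2 change ran from -0.88 for CNN1 (SE 0.32, adjusted p = 0.11) to 1.19 for CALD1 (SE 0.54, adjusted p = 0.22), and the unadjusted p was under 0.05 for these 2 genes. CALD1 entered this test too only through the promoter-proximal reads of its SNF5 samples, and those of its EGFP samples were near 0. Its value here is therefore a description and not support for a change in pausing. With OMOMYC it ran from -0.73 for CNN2 (SE 0.26, adjusted p = 0.14) to 0.45 for ACTA2 (SE 0.32, adjusted p = 0.53), and the unadjusted p was under 0.05 for CNN2 and CNN1. DESeq2 called 0 of the 10 with either construct. Without replicate 3, CNN2 was called with OMOMYC (log2 change -0.96, adjusted p = 0.03), when 8.55% of all genes were called. The EGFP index of CNN1 was 24.1, 769 and 152 in replicates 1, 2 and 3, and that of TPM1 was 1.5, 3.48 and 2.49, so that replicates of 1 construct differed widely.

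Other genes of the contractile system were described from fixed lists. Of 12 further smooth muscle genes, 4 passed the filter. LMOD1, which encodes the actin nucleator leiomodin 1, and CSRP1 rose with SNF5 and 0 fell (median log2 fold change 0.09), with the same calls without replicate 3. Of all genes tested, 14.8% rose with SNF5, and 23.8% without replicate 3. LMOD1 was at 3.65 to 8.66 CPM with EGFP, 7.12 to 20.3 with OMOMYC and 11.7 to 25.5 with SNF5, and its log2 fold change was 1.65 with SNF5 (SE 0.19, adjusted p = 0.00059) and 0.85 with OMOMYC (SE 0.19, adjusted p = 0.031). The promoter-proximal minimum left out MYLK, which encodes the kinase that phosphorylates the myosin light chain. In the fit with no filter, where 16.4% of all genes rose with SNF5, 5 of the 12 rose, MYLK, FHL1 and SYNPO2 among them. MYLK was at 1.57, 3.09 and 1.55 CPM with EGFP and 14.4, 32.3 and 15.6 with SNF5 (log2 fold change 3.31, SE 0.16, adjusted p = 6.1e-07). With OMOMYC it was at 2.84, 5.55 and 1.98 CPM and rose too (log2 fold change 0.69, SE 0.16, adjusted p = 0.033). In that fit 790 of 18579 genes rose with OMOMYC. FHL1 had a log2 fold change of 2.69 with SNF5 (SE 0.16, adjusted p = 2.6e-06). MYLK, FHL1 and SYNPO2 were named after their values were seen. MYH11, the smooth muscle myosin heavy chain, had a log2 fold change of 0.35 with SNF5 (SE 0.28, adjusted p = 0.41).

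Of 19 genes for nonmuscle actin, myosin and their partners, 15 were tested; 5 rose with SNF5 and 1 fell (median 0.02). With OMOMYC 1 rose and 3 fell (median -0.06). Without replicate 3, 5 rose and 4 fell with SNF5, and 2 rose and 6 fell with OMOMYC. Over all genes, 14.8% rose and 15.8% fell with SNF5 and 6.15% and 5.64% with OMOMYC, and without replicate 3 it was 23.8% and 32.6% with SNF5 and 23.5% and 27.2% with OMOMYC. TAGLN2, a transgelin paralog, had a log2 fold change of 0.91 with SNF5 (SE 0.14, adjusted p = 0.0022). The alpha-actinins ACTN4 and ACTN1, which bundle actin, rose by 0.56 (SE 0.08, adjusted p = 0.0014) and 0.39 (SE 0.05, adjusted p = 0.00096) on the log2 scale. MYL12A, another regulatory light chain, rose with both constructs, by 0.25 with SNF5 and 0.35 with OMOMYC. The actin-binding genes CFL1 and PFN1 fell with OMOMYC, both by 0.36. CFL1 also fell with SNF5, by 0.31, and PFN1 had a log2 fold change of -0.27 with SNF5 (adjusted p = 0.063). Like TPM1, TAGLN2 was low in replicate 3, at 1.32 to 3.28 CPM against 11.1 to 21.6 in the other 6 samples.

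Of 7 genes for SRF and its cofactors, 6 were tested, and MKL1 and MKL2, the myocardin-related factors, rose with SNF5 by 0.26 and 0.15 while 0 fell (median -0.04); 0 of the 6 were called with OMOMYC (median 0, rounded from -0.004) in edgeR's test. Without replicate 3, ELK1 and ELK3, which encode ternary complex factors, also fell with SNF5, and with OMOMYC MKL2 rose and ELK3 fell. Of all genes, 14.8% rose and 15.8% fell with SNF5, and 6.15% rose and 5.64% fell with OMOMYC. Without replicate 3 it was 23.8% and 32.6% with SNF5 and 23.5% and 27.2% with OMOMYC. SRF itself was at 28.1 to 34.1 CPM with EGFP and 25.4 to 29.2 with SNF5. MKL1, MKL2, ELK1 and ELK3 were named after their values were seen, because so few were called.

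Marker genes of other cell types moved in part. Of all genes, 14.8% rose and 15.8% fell with SNF5, and 6.15% and 5.64% with OMOMYC. Without replicate 3 these shares were 23.8% and 32.6% with SNF5 and 23.5% and 27.2% with OMOMYC. Of 10 striated muscle genes 3 were tested, and with SNF5 TNNC1 rose and TNNT1 fell (median -0.24), with and without replicate 3. With no filter TNNT2 also rose (log2 fold change 0.81, adjusted p = 0.0013). The summed level of the 10 was 58.1 to 65.8 CPM with EGFP, 58.3 to 65.1 with OMOMYC and 56.2 to 67.2 with SNF5, and 4 of them were under 1 in all samples. Of 4 leukocyte genes, CD68 alone was tested, and it was not called with SNF5 (log2 fold change -0.2) or OMOMYC (-0.06). Without replicate 3 it fell with SNF5, by 0.28. Their summed level was 15 to 27.6 CPM with EGFP, 13.2 to 28.2 with OMOMYC and 13 to 22.3 with SNF5. Of 4 epithelial genes, 2 were tested: KRT18 fell with SNF5 and both KRT8 and KRT18 fell with OMOMYC (median -0.15 and -0.28). Without replicate 3 both fell with both constructs. With no filter CDH1 rose with SNF5 (log2 fold change 1.04, adjusted p = 0.0065). Their summed level was 335 to 705 CPM with EGFP, 281.1 to 566 with OMOMYC and 334 to 630 with SNF5.

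Of the 3 endothelial genes none passed the filter. PECAM1 was listed at 0 in all samples, and the summed level was 5.91 to 11.3 CPM with EGFP, 5.06 to 13 with OMOMYC and 13.1 to 31.7 with SNF5. VWF rose in the fit with no filter, with a log2 fold change of 1.35 (SE 0.15, adjusted p = 0.0001), as did CDH5 (1.34, SE 0.3, adjusted p = 0.0074). In that fit 16.4% of all genes rose with SNF5. All samples were of the G401 line, so VWF and CDH5 are read here as genes of that line and not as endothelial cells. Whether their rise is linked to that of ACTA2, CNN1 and TAGLN was not tested. Of the 8 genes taken as smooth muscle markers, which include ACTA2, TAGLN and CNN1, the summed level was 32.1 to 63.7 with EGFP, 47.9 to 81.5 with OMOMYC and 61 to 84.8 with SNF5.

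The genes whose gene body pattern was most like that of CALD1 were found by Pearson's correlation over the 9 samples, on log2 CPM after removal of the mean of each replicate number. They were NCOA7 (r = 0.997), WDFY2 (0.997), SSBP2 (0.997), ARHGAP5 (0.997) and C1orf198 (0.996). NCOA7 was at 81.9, 86.6 and 88.1 CPM with EGFP, 97, 105 and 93.7 with OMOMYC and 225, 245 and 167 with SNF5. Like CALD1, it was highest in SNF5 replicate 2 and lowest of the SNF5 samples in replicate 3. The points share libraries and scaling, and the 5 were the highest of 11171 genes, so the values are a description.

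ATAC-Seq peaks were compared at the 10 loci, each gene with 10 kb to either side, in GRCh38 coordinates. The peak lists hold no read counts, and their lengths differed: 9208 to 17817 peaks with EGFP, 7260 to 23684 with OMOMYC and 22722 to 33596 with SNF5. Merging gave 40005 sites, of which 29 lay at the 10 loci. A gained site was one with a peak in every SNF5 (or OMOMYC) sample and in none of the EGFP samples. With SNF5 1 of the 29 sites was gained (3.45%), against 9.09% of all sites, and 0 were lost. Thus 1 of the 10 genes had a gained site, against 10.9% of 17184 genes. With OMOMYC 0 were gained, against 0.0815% of genes.

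The gained site lay at ACTA2, at chr10:88990433-88990944, in an intron of the annotated gene and 684 bases from its upstream start. The fold over local background was 4.21, 6.25 and 5.16 in the 3 SNF5 samples, and OMOMYC replicate 2 also had a peak (5.26). The site contains 2 annotated FAS starts on the opposite strand, at 88990798 and 88990914. Next to it, a site that covers 170 bases of the upstream ACTA2 promoter printed above had peaks in SNF5 replicates 2 and 3 (4.68 and 4.62) and in 0 of the 6 other samples. The downstream ACTA2 promoter had no peak in any of the 9 samples. Over the whole ACTA2 locus, each SNF5 sample had a peak at 4 of the 5 sites, against 0, 2 and 0 with EGFP and 0, 4 and 0 with OMOMYC. An exact two-sided permutation test of the number of peaks with SNF5 and EGFP gave p = 0.1, the smallest possible with 3 against 3, so it could not pass 0.05, and the SNF5 lists were the longer ones.

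**Figure D5:**
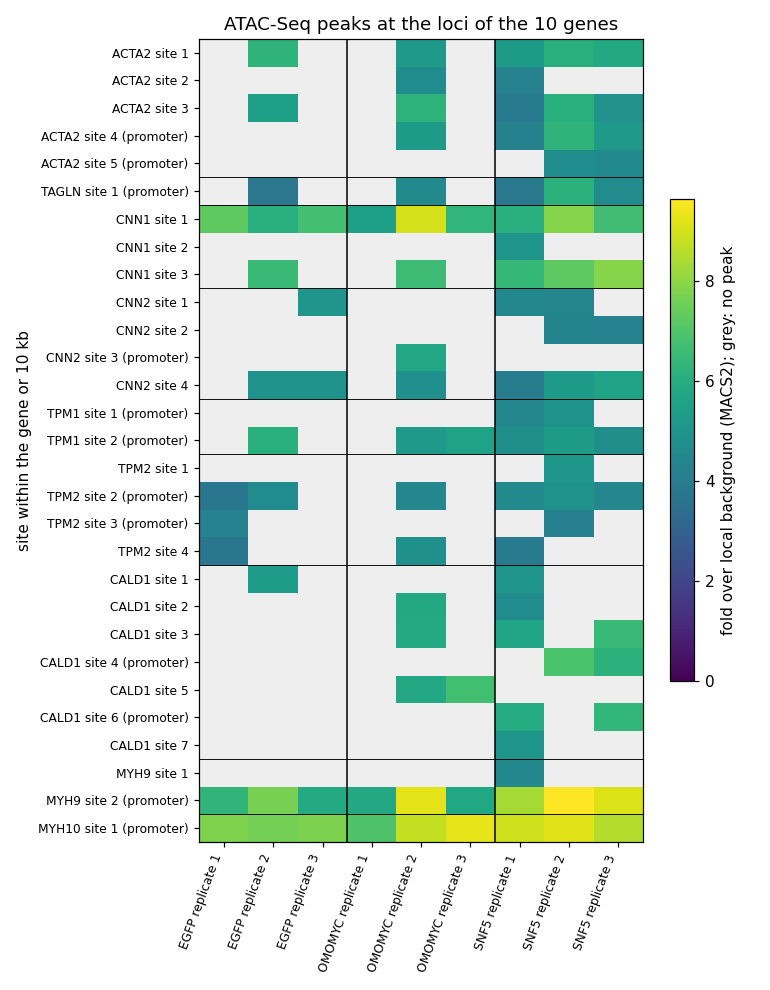
ATAC-Seq peaks at the 29 sites of the loci (rows, in genome order within each gene) in the 9 samples (columns). Colour gives the fold over local background from MACS2, and grey means no peak; MYL9 had no site. The MYH9 and MYH10 promoters and a site near CNN1 are open in all 9 samples, and ACTA2 site 4 is the gained site.

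At CALD1, 2 of the 7 sites covered printed promoters. The site at chr7:134779408-134779678 had peaks in SNF5 replicates 2 and 3 (6.9 and 6.18), and that at chr7:134891357-134891592 in SNF5 replicates 1 and 3 (5.96 and 6.36). Both had peaks in 0 of 3 EGFP and 0 of 3 OMOMYC samples, and neither met the call of 3 of 3. The same pattern was seen at 2 genes that were not called with SNF5 over all 3 replicates. A TPM1 promoter site (chr15:63042425-63042765) had peaks in SNF5 replicates 1 and 2 alone. A site at -4943 bases from the CNN2 start had them in SNF5 replicates 2 and 3 alone. The number of CALD1 sites with a peak was 5, 1 and 3 with SNF5, 0, 1 and 0 with EGFP and 0, 3 and 1 with OMOMYC (p = 0.2 for SNF5 against EGFP, exact permutation test). When 2 of 3 samples were enough, 4 of the 10 genes had a gained site with SNF5. The share of all genes under this looser rule was not computed, so the count cannot be compared with it.

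In contrast, 3 sites had a peak in all 9 samples: the MYH9 promoter, the MYH10 promoter and a site at -9548 bases from the CNN1 start. At the MYH9 promoter the fold was 5.89 to 7.64 with EGFP, 5.78 to 9.21 with OMOMYC and 8.33 to 9.62 with SNF5. At MYH10 it was 7.62 to 7.76 with EGFP, 6.94 to 9.26 with OMOMYC and 8.52 to 9.18 with SNF5. No site was found at MYL9, and 8 of the 10 genes had a site within 1 kb of a start. Fold values of peaks are not scaled between libraries and were not tested. Without replicate 1, 2 or 3, and with all peaks of the remaining samples needed, 3, 5 and 3 genes had a gained site. The shares of all genes in these 3 settings were not computed. With the 7260 strongest peaks of each sample, 0 did.

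MYC peaks were looked for within 1 kb of the listed start, in hg19. In EGFP replicate 2, peak summits lay at -33 bases from the MYH9 start (fold 5.12), -690 bases from the MYH10 start (5.76) and -716 bases from the TPM2 start (5.09), where negative is upstream. EGFP replicate 1 and both SNF5 samples had none at any of the 10 genes. A peak in an EGFP sample was found for 3 of 10 genes, against 23.2% of 20367 genes. The lists were of unequal length, with 940 and 5396 peaks in the 2 EGFP samples and 137 and 27 in the 2 SNF5 samples, and those of OMOMYC hold a placeholder in place of peaks. MYH9 and MYH10 rose with SNF5 and, in the fit without replicate 3, also with OMOMYC, while TPM2 fell with OMOMYC and was not called with SNF5.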

How the data were processed

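PRO-Seq (3 samples each of EGFP, OMOMYC and SNF5), ATAC-Seq (3 each) and MYC ChIP-Seq (2 each) of G401 cells were used. For PRO-Seq, the authors trimmed reads with cutadapt, kept those over 15 bp, aligned them to hg19 with Bowtie2, removed rRNA reads and low-quality alignments, and deposited raw counts per RefSeq transcript from NRSA for the gene body and the window near the start. For ATAC-Seq (GRCh38, q of 0.001) and MYC ChIP-Seq (hg19, q of 0.01), the authors deposited MACS2 peak lists with a pileup signal, a fold ratio over local background and -log10 p and q values, called per sample and holding no read counts. Peaks therefore have no depth here.

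One transcript per symbol was used, and genes with a mean of 10 counts in both regions were kept (11171 genes). Counts were fitted with edgeR 4.0.16 in R 4.3.3 (limma 3.58.1), with gene body totals times RLE factors as library sizes, all 9 samples and the replicate number as a block, and p-values were Benjamini-Hochberg adjusted over all 11171 genes. The pausing index was tested as the interaction of construct and region. Same-numbered samples deviated together (correlation of deviations from the group means 0.847 to 0.926 in gene bodies and 0.69 to 0.918 promoter-proximally), so the numbers, taken from the labels, pair the samples. In data simulated for SNF5 against EGFP, with 200 of 11171 genes changed 2-fold, 95.5% were recovered in gene bodies, 66.5% promoter-proximally and 51% for the pausing index, and 4.5%, 6.34% and 11.3% of the calls were false. Peaks of all samples were merged into sites, and a site belonged to a gene if it overlapped the gene's RefSeq span or the 10 kb to either side. The starts and exons used to place these sites were from GENCODE release 44. Tables and plots were made with pandas 2.3.3, NumPy 2.4.6 and Matplotlib 3.10.9 in Python 3.11.15.

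The alternatives were TMM scaling, gene body totals without RLE, promoter-proximal RLE, DESeq2 1.42.0, no filter, a mean of 50 counts, no block, the 2 constructs alone, each replicate left out, and other peak thresholds, flanks and overlaps. The genes and lists were chosen with earlier results of these data known. The text names all 10 genes, SMARCB1, up to 8 genes of the other lists with the largest changes past the threshold, and the 5 genes most like the member with the largest change; other names were added after their values were seen. The results of 1 further gene list are not reported here. The OMOMYC MYC ChIP lists hold a placeholder and were not used.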

Additional observations from a re-analysis of the deposited data

How the results depend on the processing

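Of the 13 gene-level calls for the 10 genes, all 13 kept their direction and side of the threshold under TMM scaling, DESeq2, no filter and without replicate 3. This held for 11 with gene body totals only, 9 with only the 2 constructs compared, 5 without replicate 1, 5 without replicate 2 and 2 with no replicate block. With a mean of 50 counts it held for the 10 calls that could be tested. With gene body totals only, the calls lost were CNN1 with SNF5 (0.83, adjusted p = 0.052) and TPM2 for SNF5 against OMOMYC (0.17, adjusted p = 0.089). The causes of the changes below were not tested. With no replicate block, the genes called fell from 3408 to 108 for SNF5, from 1317 to 1 for OMOMYC and from 1748 to 40 for SNF5 against OMOMYC in gene bodies, and to 0 for promoter-proximal counts and the pausing index with either construct; the members called were 1, 0 and 1 in gene bodies and 0 promoter-proximally with SNF5. With only the 2 constructs compared, 2227 genes and 3 members were called with SNF5 in gene bodies, and 1 member promoter-proximally with OMOMYC. With no filter, 2855 genes were called for SNF5 against OMOMYC, 742 promoter-proximally with SNF5, and 1 member promoter-proximally with OMOMYC. A mean of 50 counts gave 286 genes and 0 members promoter-proximally with SNF5, and promoter-proximal RLE gave 1010 genes with SNF5 and 1 member with OMOMYC. With a mean of 50 counts CALD1 was not tested. DESeq2 gave 153 genes promoter-proximally with OMOMYC and 102 and 69 for the pausing index with SNF5 and OMOMYC.

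Leaving out 1 replicate gave, in gene bodies, 707 to 6297 genes and 2 to 7 members for SNF5, 2 to 5655 and 0 to 8 for OMOMYC, and 325 to 4750 and 2 to 8 for SNF5 against OMOMYC. It gave 71 to 796 genes and 1 to 2 members promoter-proximally with SNF5, 4 to 1049 and 0 to 2 with OMOMYC, and for the pausing index 9 to 617 and 0 to 1 with SNF5 and 0 to 955 and 0 to 1 with OMOMYC. Members with a gained ATAC-Seq site were 3 to 5, and those with a MYC peak 0 to 3. Gained sites were found for 0 members with equal numbers of top peaks, 4 when 2 of 3 samples were enough and 0 at a q of 1e-10, where 1 member had a MYC peak. The share of all genes with a gained site was computed for the main rule only.

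No reversed value had been called. In gene bodies CNN2 was at 0.005 under DESeq2 for SNF5 against OMOMYC. Promoter-proximally with SNF5, CNN1 was at -0.034 with gene body totals only and -0.017 with promoter-proximal RLE, and MYH10 was at -0.026 and -0.021 under these and -0.16 with no block. Leaving out 1 replicate reversed other values, given here as the lowest to the highest log2 value. For gene body counts, SNF5 against EGFP, these were TPM2 -0.102 to 0.014 and CNN2 -0.094 to 0.101. For gene body counts, OMOMYC against EGFP, these were CNN2 -0.068 to 0.035. For gene body counts, SNF5 against OMOMYC, these were ACTA2 -0.063 to 0.268 and CNN2 -0.055 to 0.065. For promoter-proximal counts, SNF5 against EGFP, these were CNN1 -0.348 to 0.505, MYH10 -0.223 to 0.208, ACTA2 -0.253 to 1.893, TPM1 -0.027 to 1.218 and TPM2 -0.515 to 0.15. For promoter-proximal counts, OMOMYC against EGFP, these were MYL9 -0.21 to 0.038, TAGLN -0.211 to 0.03, TPM2 -0.435 to 0.065 and CALD1 -0.211 to 0.914. For pausing index, SNF5 against EGFP, these were ACTA2 -0.557 to 0.898, CNN2 -0.331 to 0.093, MYH10 -0.406 to 0.048, TPM2 -0.413 to 0.167 and MYH9 -0.23 to 0.002. For pausing index, OMOMYC against EGFP, these were TPM2 -0.144 to 0.358 and CALD1 -0.557 to 0.637. The low promoter-proximal depth of replicate 1 limits what small differences in that window can be seen.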
